A study of Caenorhabditis elegans with 2 samples.

Results

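Weak RPC-1 peaks at protein-coding promoters were described, just below the reach of the reproducible peak list. The protein mapped, RPC-1, is the large catalytic subunit of RNA polymerase III (Pol III), and its binding was read by chromatin immunoprecipitation and sequencing (ChIP-seq) in whole Caenorhabditis elegans. The worms were young adults of strain YL517, of pooled sexes, a transgenic line with a GFP-FLAG tag at the C terminus of RPC-1. Both libraries belonged to this 1 group, as biological replicates 1 and 2, and chromatin was sheared by sonication. The tissue that a peak comes from cannot be told in whole animals, and no other genotype or untagged strain was analysed here.

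Members were chosen from the 24907 peaks pooled over both replicates, by the signal value, the score that the authors' peak caller gave each peak. A signal value of at least 20, but below that of every peak in the list that passed the irreproducible discovery rate (IDR), was held by 3127 peaks. The IDR measures how alike peaks rank in the replicates. Of the 3127, 1626 had their summit within 500 bp of an annotated protein-coding transcript start. A tRNA, 5S rRNA, snRNA or snoRNA gene lay within 1 kb of 60 of these, and a further 89 lacked an overlapping peak in at least 1 replicate list. The remaining 1477 peaks, 5.93% of the pooled list, are the weak promoter peaks, and they were nearest to the starts of 1353 genes. That is 6.77% of the 19971 protein-coding genes, against 0.931% for IDR peaks and 11.4% for pooled peaks under 20 chosen by the same position and replicate rule.

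Pol III transcribes short non-coding RNAs, above all tRNAs, from promoters that mostly lie inside the transcribed region, where TFIIIC binds the A and B boxes. Protein-coding genes are transcribed by RNA polymerase II (Pol II) instead. In C. elegans, many mRNAs receive a spliced leader at their 5′ end, so the annotated start often marks the trans-splice site and the start of transcription lies upstream of it.

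The sequences under the summits of the highest weak promoter peaks are given first. They show how these sites look over 1 kb from any tRNA, 5S rRNA, snRNA or snoRNA gene. Each is 150 bp of the RefSeq WBcel235 genome around the summit, on the strand of the gene, with capitals on any match to the motifs listed further on. The first 5 belong to the highest peaks of chromosomes II (C16A11.3, chrII:4229236-4229385, plus strand), III (egg-1, chrIII:5727940-5728089, plus), IV (col-104, chrIV:1355439-1355588, minus), V (F57A10.2, chrV:15766341-15766490, plus) and X (soc-3, chrX:5603923-5604072, plus).
C16A11.3: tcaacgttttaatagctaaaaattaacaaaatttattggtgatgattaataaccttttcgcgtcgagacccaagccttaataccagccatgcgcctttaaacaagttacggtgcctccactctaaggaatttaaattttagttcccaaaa
egg-1: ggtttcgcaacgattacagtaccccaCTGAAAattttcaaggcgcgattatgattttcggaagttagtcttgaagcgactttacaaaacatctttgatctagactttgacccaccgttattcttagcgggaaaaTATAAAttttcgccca
col-104: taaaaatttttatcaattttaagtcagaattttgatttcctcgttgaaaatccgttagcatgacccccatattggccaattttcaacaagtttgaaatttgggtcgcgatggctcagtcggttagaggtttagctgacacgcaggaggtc
F57A10.2: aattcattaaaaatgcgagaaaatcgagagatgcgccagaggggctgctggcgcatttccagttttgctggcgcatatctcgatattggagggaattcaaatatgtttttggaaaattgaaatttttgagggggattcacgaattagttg
soc-3: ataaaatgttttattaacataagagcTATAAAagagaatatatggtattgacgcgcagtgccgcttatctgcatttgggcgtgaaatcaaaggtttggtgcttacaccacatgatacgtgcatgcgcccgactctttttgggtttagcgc
The summit at soc-3 lay 202 bp downstream of the start, in an intron, and the other 4 lay upstream. The window of egg-1 held a TATAAA and a TTTCAG word, on opposite strands, and that of soc-3 a TATAAA. The other windows held none of the motifs. The summit of col-104 lay 28 bp from an annotated tRNA pseudogene and 787 bp from an IDR summit, and no other of the 5 summits lay within 1 kb of either. The window of col-104 thus holds bases of this pseudogene, and the A box was not among the motifs searched.

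Ribosomal protein members, 3 of the 4 highest, are shown because this gene list held many weak promoter peaks. They are rps-28 (chrIV:1659172-1659321, plus strand), rpl-36A (chrII:11097419-11097568, minus) and rps-24 (chrIV:385530-385679, plus).
rps-28: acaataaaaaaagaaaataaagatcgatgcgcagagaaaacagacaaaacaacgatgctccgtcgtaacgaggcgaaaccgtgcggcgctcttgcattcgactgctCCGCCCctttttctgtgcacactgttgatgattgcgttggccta
rpl-36A: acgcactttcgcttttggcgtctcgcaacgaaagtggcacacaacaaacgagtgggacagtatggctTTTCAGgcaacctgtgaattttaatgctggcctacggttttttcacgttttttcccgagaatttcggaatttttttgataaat
rps-24: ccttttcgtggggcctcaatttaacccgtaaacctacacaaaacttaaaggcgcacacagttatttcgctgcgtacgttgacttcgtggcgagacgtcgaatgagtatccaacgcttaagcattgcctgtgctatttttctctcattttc
Capitals mark a GC box word, GGGCGG read on the other strand, in rps-28 and a TTTCAG word in rpl-36A. None of the 3 had a B box in this window.

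A last pair, chosen after their values were seen, are strong members with a B box, here in capitals. They are B0545.4 (chrIV:109824-109973, minus strand) and Y77E11A.12 (chrIV:1462853-1463002, minus).
B0545.4: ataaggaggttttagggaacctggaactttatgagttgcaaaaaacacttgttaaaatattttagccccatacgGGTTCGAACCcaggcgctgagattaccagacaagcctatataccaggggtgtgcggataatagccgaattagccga
Y77E11A.12: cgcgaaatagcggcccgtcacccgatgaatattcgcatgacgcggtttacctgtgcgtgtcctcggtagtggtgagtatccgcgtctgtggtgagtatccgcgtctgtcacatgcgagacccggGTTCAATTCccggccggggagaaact
The signal value of B0545.4 was 56.1 in the pooled list, 33.9 in replicate 1 and 20.1 in replicate 2. That of Y77E11A.12 was 56.0, 38.0 and 15.99. Their offsets from the start were −492 and −132 bp, where upstream is negative. IDR summits lay 1509 and 1765 bp away. An annotated tRNA pseudogene lay 1753 bp from the summit at Y77E11A.12.

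The signal values of the weak promoter peaks, which chose them, ran from 20.01 to 59.8 with a median of 27.7 and quartiles of 23.2 and 36.0. Of the 1477, 402 (27.2%) held the highest −log10 q of the pooled list, 3.78, which all 213 IDR promoter peaks held too. All 369 peaks with a signal value from 36.1 upward held it, and none up to a value of 27.7 did. The median −log10 q was 3.30 for the weak promoter peaks. For promoter peaks under 20 it was 0.349, with a highest value of 1.59, so most of that comparison set had weak statistical support. The interval was 600 bp wide in 98.8% of the peaks. The members just inside the upper limit were lotr-1 (59.8) and F57A10.2 (59.5), and the peaks just outside were znfx-1 (59.97) and hsp-90 (59.998), both of the IDR list. At the lower limit, sec-62 (20.01) and snx-13 (20.02) lay inside, and wdr-5.3 (19.991) and T01B7.5 (19.989) lay outside.

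The 10 highest members span several functions. The highest, at lotr-1, which encodes a LOTUS domain protein of germ granules, had a signal value of 59.8 in the pooled list, 34.6 in replicate 1 and 26.4 in replicate 2. F57A10.2, annotated as a major sperm protein, had 59.5, 40.6 and 17.9. C55A6.10, which encodes a NARG2 domain protein, had 58.9, 34.5 and 26.6. In these peaks the replicates stood at like ranks in their own lists, between 2064 and 2854 of 26455 and 27629 peaks.

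The next members were snx-3 (58.5 in the pooled list), a sorting nexin that acts in endosome recycling, C16A11.3 (57.9), lin-8 (57.8), a synthetic multivulva gene, and egg-1 (57.5), an oocyte surface protein needed for fertilization. They were followed by hsr-9 (57.4), which is related to a mammalian DNA damage response protein, the collagen gene col-104 (57.3) and the C-type lectin gene clec-238 (56.9). All 10 summits lay upstream of the start, with offsets from −113 to −476 bp, and IDR summits lay within 1 kb of col-104 and clec-238. The lowest 5 were spt-4 (20.05), a transcription elongation factor, fkb-3 (20.05), a peptidylprolyl isomerase, hgap-2 (20.04), snx-13 (20.02) and sec-62 (20.01), a protein of the endoplasmic reticulum translocon. The summits of hgap-2 and snx-13 lay 396 and 377 bp downstream of the start, in introns.

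The summits of the replicate peaks were set against the pooled summits. Some closeness is built in, since an overlap was required, the nearest replicate summit was taken and the pooled list came from both replicates. The overlapping peak of replicate 1 had its summit a median of 29 bp from the pooled summit, and that of replicate 2 a median of 42 bp. For promoter peaks under 20 these medians were 77.5 and 92 bp, and for IDR promoter peaks 9 and 10 bp. A replicate summit lay within 100 bp for 86.1% of the weak promoter peaks in replicate 1 and 80.7% in replicate 2. By signal value, 94.6% were above the median of the replicate 1 list and 88.1% above that of the replicate 2 list, and 82.9% were in the upper part of both when each list is split at its middle rank. Of the 1477, 253 (17.1%) fell below the middle rank in at least 1 list. The lower limit of 20 lies above the pooled median of 11.6, so standing above the replicate medians is partly set by the rule.

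Across the 1477 peaks the signal values of the replicates had a Spearman rho of 0.0797, against 0.895 across the 213 IDR promoter peaks and 0.101 across the 2852 promoter peaks under 20. These values are across peaks, which are not independent, and the narrow range of the pooled value, made from both replicates, limits what rho can be within it. The IDR list held every pooled peak from a signal value of 59.97 upward, so its edge was a limit on the pooled value. Like ranks in the replicates were not ensured for each peak, since the poorest replicate 2 rank of an IDR promoter peak was 16922. The pooled values of the IDR promoter peaks ran from 59.97 to 5488. This wide range favours a high rho there, so the rho values do not compare how well the sets repeat. Among the highest peaks of each replicate list, taken to the number of peaks in the IDR list, 22 members had a peak in replicate 1, 56 in replicate 2 and 3 in both, so 1402 (94.9%) had none. The rule kept only peaks below every IDR peak in the pooled list, so this share is also partly set by it.

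**Figure D1:**
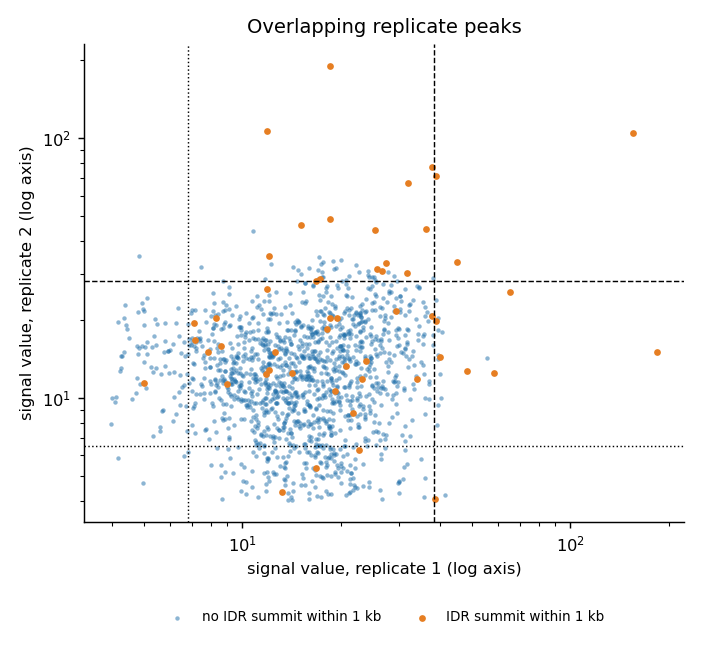
Signal value of the overlapping peak in replicate 1 (horizontal, log axis) and replicate 2 (vertical, log axis) for the 1477 weak promoter peaks, with dotted lines at each list's median and dashed lines at the signal value reached by as many peaks as the IDR list holds. Of the points, 1402 reach neither dashed line, and orange marks the 51 with an IDR summit within 1 kb.

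An IDR summit lay within 1 kb of 51 of the weak promoter peaks (3.45%), against 13.5% of the 1282 peaks of the same signal range away from protein-coding starts. For the weak promoter peaks the median distance to an IDR summit was 33433 bp. The 10 members of best rank in both replicates included 6 with an IDR summit within 1 kb. At gba-4, a glucosylceramidase gene, the pooled signal value was 25.9, while the overlapping peaks had 155 in replicate 1 and 105 in replicate 2, with an IDR summit 209 bp away and replicate summits 218 and 212 bp from the pooled one. C54E10.3 (26.2 pooled), C49A1.10 (56.0), rpl-3 (22.5), the synaptotagmin gene snt-6 (43.0) and col-104 were the other 5. The overlapping replicate peaks of C54E10.3 and C49A1.10 in replicate 2 had summits 195 and 176 bp from the pooled one. C01G10.14 (40.3), lotr-1, C55A6.10 and hsr-9 completed the 10, with IDR summits 6093 to 80031 bp away.

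The weak promoter peaks sat upstream of the annotated start. The summit was upstream in 1156 of 1477 (78.3%, Wilson 95% interval 76.1 to 80.3), with a median offset of −149 bp and quartiles of −271 and −27 bp. The fullest 100 bp stretch ran from −200 to −100 bp with 353 peaks (23.9%), and the emptiest ran from 300 to 400 bp downstream with 33 (2.23%), followed by 46 (3.11%) from 400 to 500 bp. The rule allowed both sides equally, so the side was not set by it. The nearest upstream summit was that of T26E3.4 (−1 bp) and the nearest downstream that of nas-4, a metalloendopeptidase gene (1 bp). The farthest were those of rps-8 (−499 bp) and Y17D7B.10 (496 bp).

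IDR promoter peaks lay upstream in 61.5% (54.8 to 67.8), and had their fewest summits, 7 of 213, from 0 to 100 bp downstream. Promoter peaks under 20 lay upstream in 57.0% (55.2 to 58.9), with a median offset of −52 bp. The median signal value of the weak promoter peaks was 30.6 between −300 and −200 bp and 23.8 between 100 and 200 bp downstream, the highest and the lowest of the 10 stretches.

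**Figure D2:**
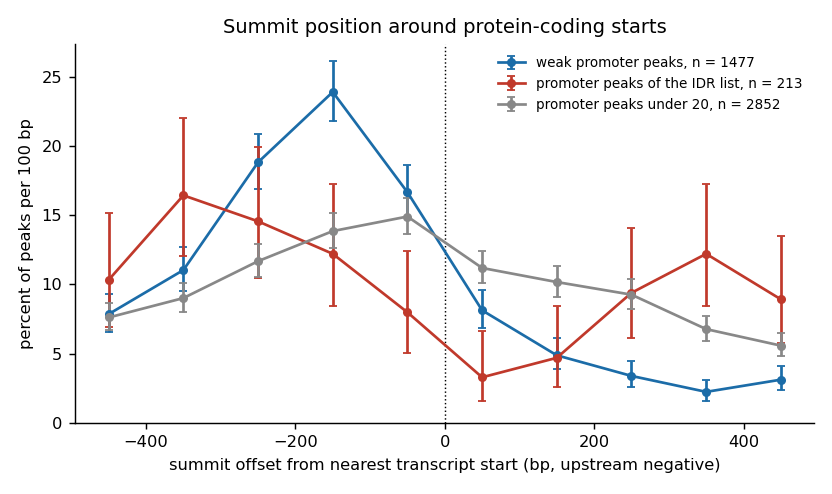
Percent of peaks per 100 bp of summit offset from the nearest protein-coding transcript start, upstream negative, with Wilson 95% intervals. The 1477 weak promoter peaks (blue) are most frequent from −200 to −100 bp, the 213 IDR promoter peaks (red) are least frequent just downstream of the start, and the 2852 promoter peaks under 20 (grey) are spread more evenly.

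Within the window, the weak promoter peaks favoured the space between genes. Of the summits, 983 (66.6%, interval 64.1 to 68.9) lay between protein-coding genes, which hold 34.1% of the bases within 500 bp of a start. Introns held 12.2%, UTR exons 12.5% and coding exons 8.73%, where the same bases are 28.5%, 7.46% and 29.9%. For promoter peaks under 20 the share between genes was 41.1%, and 22.8% lay in coding exons. For IDR promoter peaks it was 53.1%, with 39.9% in introns. Promoters held 52.0% of the 3127 peaks of this signal range (50.2 to 53.7), against 17.0% of the IDR peaks and 29.1% of the peaks under 20, and 22.2% of the genome lies within 500 bp of a start. The share was thus not ordered by signal value.

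The genes of the weak promoter peaks often had a close neighbour upstream. A start on the other strand, pointing away, lay within 1 kb upstream for 430 of 1353 genes (31.8%, interval 29.4 to 34.3), against 17.8% of all protein-coding genes. For genes of promoter peaks under 20 it was 23.8% (22.1 to 25.6), and for those of IDR promoter peaks 19.4%. A gene on the same strand ended within 1 kb upstream for 552 (40.8%, 38.2 to 43.4), against 28.8% of all genes. Genes of promoter peaks under 20 had this arrangement in nearly the same share, 40.3% (38.3 to 42.4). This second arrangement includes genes inside operons, in which C. elegans transcribes several genes as 1 unit. Operons were not annotated in the reference used, so their share was not measured. For 27.9% of the genes neither neighbour was found, against 36.7% of genes of promoter peaks under 20 and 53.9% of all genes. In 284 peaks (19.2%) the summit lay upstream of 2 starts on opposite strands at once, so the gene called nearest there is 1 of 2 candidates.

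Several of these features moved with the signal value among the 1477 peaks. Split into 4 equal sets by signal value, the share with an upstream summit was 71.9%, 72.9%, 82.4% and 85.9% from the lowest to the highest. The share of summits between genes was 58.1%, 61.0%, 70.7% and 76.4%. The share with a divergent start was 25.4%, 27.9%, 33.6% and 36.6%, while that with a same-strand gene upstream was 44.9%, 45.5%, 42.3% and 34.1%. Median GC content within 100 bp of the summit was 34.3%, 34.8%, 36.8% and 37.8%. The median distance from the pooled summit to the summit of replicate 1 was 36, 32, 29 and 24 bp.

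**Figure D3:**
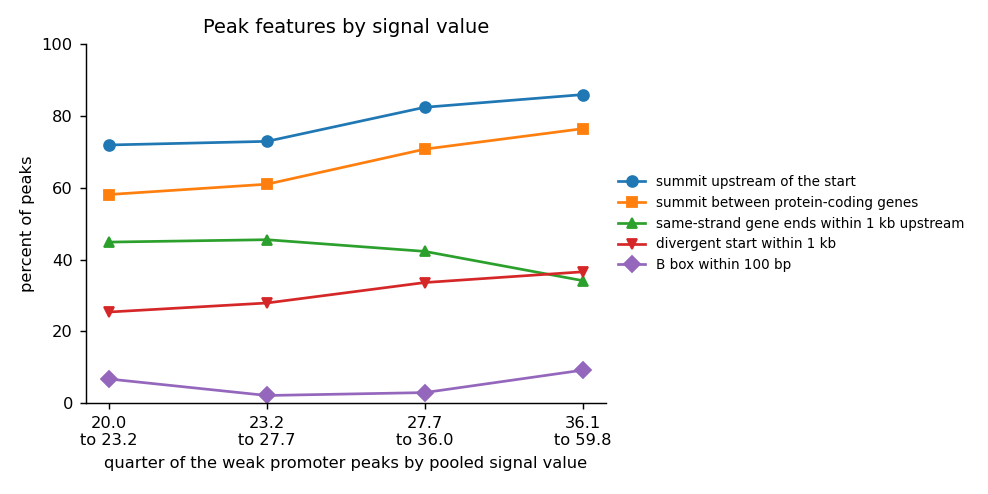
Percent of the weak promoter peaks with each of 5 features (vertical), in 4 equal sets ordered by pooled signal value (horizontal). Upstream summits rise from 71.9% to 85.9% and divergent starts from 25.4% to 36.6%, same-strand upstream genes drop to 34.1%, and B boxes are at 9.21% in the highest set.

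Autosomes carried nearly all of the weak promoter peaks. Chromosome I had 318, II 277, III 298, IV 294 and V 265, while X had 25 (1.69% of the members, interval 1.15 to 2.49), although X holds 13.7% of the protein-coding genes. By gene, 10.1% of the genes on I, 7.57% on II, 10.1% on III, 7.95% on IV and 4.92% on V were nearest to such a peak. On X the share was 0.916% (25 of 2730 genes, interval 0.621 to 1.35), and on all autosomes 7.70%. The interval began at 4.36% on V, the lowest of the autosomes.

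X was also low among promoter peaks under 20 and among peaks of the same signal range away from starts, but not among IDR peaks. Genes nearest to an IDR promoter peak were 0.769% of X genes, within the range of 0.671% to 1.29% on the autosomes. For promoter peaks under 20 the share on X was 4.98%, against 7.93% to 17.4% on the autosomes. Of the peaks of the same signal range away from starts, 8.97% were on X, or 6.49 per Mb against 14.1 per Mb on the autosomes. For the weak promoter peaks these densities were 1.41 and 17.6 per Mb. Of all IDR peaks, 26.8% were on X. The highest member of X was soc-3, an adaptor of growth factor receptor signalling, with a signal value of 53.0 in the pooled list, 33.2 in replicate 1 and 15.1 in replicate 2. The median signal value on X was 24.4, against 26.9 to 28.4 on the autosomes. The middle stretch of each autosome, with arms of the same length on either side, held 42.4% of the autosomal members and 38.1% of the autosomal genes.

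**Figure D4:**
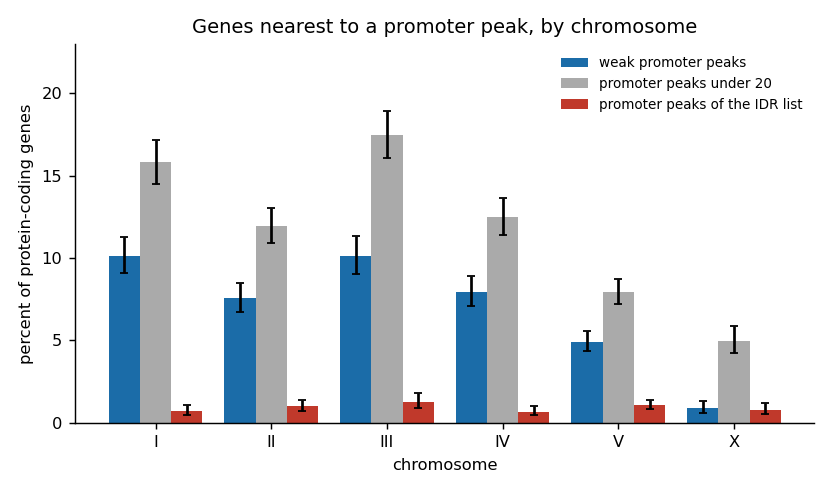
Percent of the protein-coding genes of each chromosome (horizontal) that are nearest to a weak promoter peak (blue), a promoter peak under 20 (grey) or an IDR promoter peak (red), as bars from 0 with Wilson 95% intervals. The blue bar is 0.916% on X and 4.92% to 10.1% on the autosomes, while the red bar is 0.769% on X and 0.671% to 1.29% on the autosomes.

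Gene lists were read against the 6.77% of all protein-coding genes nearest to a weak promoter peak, or 7.70% on the autosomes. The lists were made from gene symbol patterns and are incomplete, so each count is of the genes whose symbols matched. Members that the patterns missed are named, after their values were seen, beside the list they would belong to where they were noticed. The lists were not tested for enrichment, and these counts describe them. Promoter peaks under 20, at 11.4% of all genes, showed a like spread of shares. Such a peak was nearest to 43.8% of the listed Pol I and Pol II genes, 41.4% of the P granule and germline RNA genes, 40.6% of the synthetases, 39.1% of the nucleolar list and 33.3% of the translation factors, against 2.92% of the chemoreceptor pattern. For cytosolic ribosomal proteins it was 21.8% and for proteasome subunits 27.3%. Whether the lists differ between the weak promoter peaks and those under 20 was not tested.

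The listed cytosolic ribosomal proteins, which are components of the ribosome, had a weak promoter peak at 30 of 78 genes (38.5%, interval 28.4 to 49.6). A further 4 genes had an IDR promoter peak only. The highest was rps-28 of the small subunit, with a signal value of 53.1 in the pooled list, 25.4 in replicate 1 and 21.9 in replicate 2. rpl-36A of the large subunit had 52.7, 24.1 and 29.8. rpl-12 had 51.3, 24.5 and 14.5, and rps-24 had 49.5, 35.6 and 16.1. Replicate 1 had the higher value at 3 of these 4 genes, but the scales of the lists may differ. The median offset over the 30 genes was −222 bp, against −155 bp over all genes with a member, taking the highest member of each. At rps-8, 3 members lay at −499, −298 and 490 bp, each from its nearest annotated start, which was not the same for all. The pattern missed rplp-2.1, a large subunit protein gene with a member of 25.8.

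Other parts of the translation machinery followed. Mitochondrial ribosomal proteins had 10 of 71 (14.1%), led by mrps-14 (43.8), mrpl-55 (26.4), mrpl-9 (26.2) and mrps-31 (26.1). Translation initiation and elongation factors had 9 of 39 (23.1%, interval 12.6 to 38.3), led by eef-1B.1 (46.5), eef-2, which moves the ribosome along the mRNA (39.6), iff-1 (36.5) and eif-2gamma (30.8). Aminoacyl-tRNA synthetases, which charge tRNAs, had 4 of 32 (12.5%, interval 4.97 to 28.1). The listed ones were mars-1 (35.7), yars-2 (28.1), pars-2 (22.4) and gars-1 (22.1). The pattern missed fars-3, a phenylalanine synthetase subunit gene, whose members of 54.5 and 25.7 include a value above all 4. The interval of the listed synthetases includes the share of all genes.

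Proteins of transcription and RNA processing came next. The list of Pol III subunits and factors had 6 of 20 genes (30%, interval 14.5 to 51.9). It was led by snpc-3.4 (38.8), rpac-19 (36.7), which encodes a subunit shared by Pol I and Pol III, snpc-1.4 (29.1) and snpc-1.1 (25.3). The snpc genes encode parts of the snRNA-activating protein complex. The others, named after their values were seen, were snpc-1.2 and mafr-1, the gene of the Pol III repressor Maf1. The list of Pol I and Pol II subunits, some of which Pol III shares, had 5 of 16 (31.2%), among them rpb-11 (45.0), rpb-12 (41.9), ama-1, the largest Pol II subunit (37.6), and rpb-6 (26.97).

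Splicing factors and snRNP proteins had 10 of 39 (25.6%), led by rsp-6 (48.0), rsp-2 (43.5), prp-40 (40.4) and prp-19 (37.5). The list of nucleolar and ribosome biogenesis proteins had 13 of 46 (28.3%), led by wdr-46 (37.1), pro-1 (36.2), dao-5 (27.4) and nol-16 (24.9). Its symbol pattern also took genes known for other roles, such as wdr-23, a regulator of the stress factor SKN-1, which was named after its values were seen.

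Protein turnover, energy metabolism and germline genes had the following shares. Proteasome subunits had 14 of 33 (42.4%, interval 27.2 to 59.2), led by pbs-3 and pas-6 of the core (49.7 and 46.1), pbs-1 (40.5) and rpn-2 of the cap (39.8). At pbs-3 the replicates had 35.0 and 13.7, and at pas-6 19.5 and 26.5. Ubiquitin conjugation genes had 5 of 29 (17.2%), led by ubc-6 (28.3), ubc-14 (26.8), ubc-7 (26.3) and the polyubiquitin gene ubq-1 (24.4). Listed respiratory chain and ATP synthase genes had 11 of 45 (24.4%), of which atp-2 (53.7), cox-5A (49.0), asb-1 (45.6) and cyc-1 (39.2) were highest. The pattern missed the complex I subunit genes ndua-2 (41.0), nduf-6 (30.8) and ndub-10 (23.3).

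Listed P granule and germline RNA proteins, which act in germ cells, oocytes and early embryos, had 15 of 29 (51.7%, interval 34.4 to 68.6), the highest share of the 25 lists. pos-1 had a signal value of 46.1 in the pooled list, 24.7 in replicate 1 and 17.4 in replicate 2. The oocyte maturation gene oma-2 had 45.5, 39.6 and 9.38, and oma-1 had 42.7, 24.8 and 9.87. pgl-3, a core P granule gene, had 44.0, 31.7 and 16.4. All 4 had the higher value in replicate 1, on list scales that may differ. Of the 29 genes, 1 is on X. The pattern missed the P granule gene deps-1, with a member of 34.4. The list of cell cycle kinases and cyclins had 6 of 40 (15%), with cyb-3 (52.7), plk-1 (43.5), cdk-9 (40.9) and cdc-7 (31.4) the highest. Its symbol pattern also took genes known for other roles, such as cdk-9.

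Chaperones had 6 of 62 (9.68%), led by dnj-9 (46.1), dnj-13 (41.9), cct-6 (41.0) and sip-1 (35.0). Histones and linker histones had 4 of 81 (4.94%): his-67 (46.2), his-59 (23.4), his-74 (23.2) and his-37 (21.04). Many histone genes are near-identical copies, so reads from them may not be placed uniquely. Genes of the vha series, which encode vacuolar ATPase subunits, had 1 of 20, vha-17 (28.1). The pattern missed spe-5, which encodes another subunit and had members of 32.3 and 29.4. The intervals of these 3 lists include 6.77%.

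The remaining lists had shares below 6.77%. Of the 1369 genes of the chemoreceptor pattern, 12 had a member (0.877%, interval 0.502 to 1.53), among them srab-12 (47.2), srsx-12 (42.6) and srbc-58 (39.1). The symbol pattern also took genes of other kinds, and in the receptor families alone the count was 9 of 1308 (0.688%). At srab-12 the replicate 2 peak had 67.0 and the replicate 1 peak 32.1. Nuclear hormone receptors had 3 of 269 (1.12%), nhr-47 (41.8), nhr-41 (28.2) and nhr-19 (25.3). At nhr-41 the overlapping replicate 2 peak had 190, and that of replicate 1 had 18.5.

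Homeobox proteins had 0 of 64, with an interval up to 5.66%. Neuropeptides and insulins had 1 of 147, nlp-12 (24.7), whose replicate 2 value of 4.16 was close to the lowest of that list, 4.03. C-type lectins had 4 of 239 (1.67%), led by clec-238, clec-80 (41.7), clec-196 (23.7) and clec-252 (23.5). Collagens had 4 of 156 (2.56%), which were col-104, col-38 (28.8), col-72 (21.8) and col-2 (21.7). F-box proteins had 9 of 322 (2.80%), led by fbxa-106 (45.9), fbxb-85 (33.9), fbxb-31 (33.7) and fbxa-101 (30.2). Actin, myosin, tubulin and muscle filament proteins had 1 of 39, act-2 (39.6). Its replicate 1 value was 4.35, close to the lowest of the replicate 1 list, 3.97. The interval of these filament genes, 0.454 to 13.2%, includes the share of all genes. The actin genes are also close copies. The 6 vitellogenin genes, 5 of them on X, had none, with an interval up to 39.0%. X holds 28.1% of the homeobox genes and 25.2% of the neuropeptide and insulin genes, but 2.63% of the chemoreceptor pattern.

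**Figure D5:**
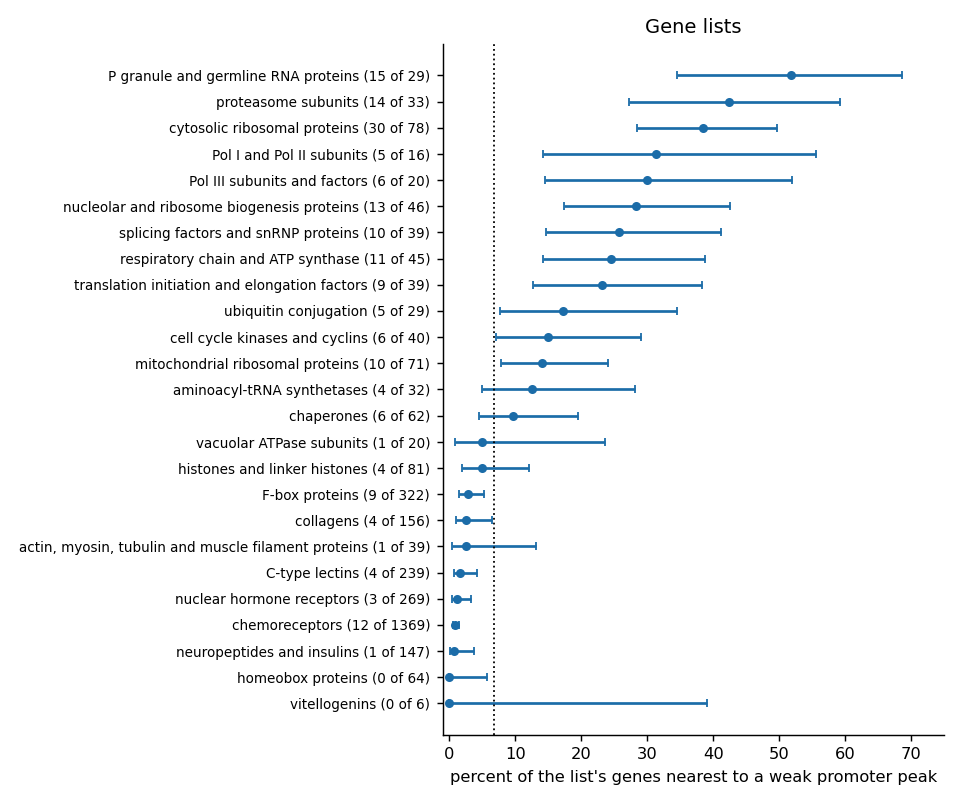
Percent of the genes of each of 25 lists that are nearest to a weak promoter peak (horizontal), with Wilson 95% intervals and the counts beside each name. The dotted line is the 6.77% of all protein-coding genes, with P granule genes at 51.7%, proteasome subunits at 42.4% and ribosomal proteins at 38.5% far to its right, and homeobox genes at 0.

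Most genes had a single weak promoter peak, 1235 of 1353 (91.3%), while 112 had 2 and 6 had 3. Several members of 1 gene are not always separate sites. At rpl-41.2 (35.2 and 27.6), zip-4 (29.2 and 20.4) and pfkb-1.1 (26.7 and 22.4), the 2 intervals overlap and rest on the same peak in each replicate. These genes were named after their values were seen, and members that share a replicate peak were not counted. mcm-4, which encodes a subunit of the replicative helicase, had members of 50.05, 26.9 and 22.5 at 2 annotated starts. eya-1, a protein phosphatase gene, had 51.7, 30.6 and 22.6. rps-8, F56F11.4 and C56C10.7 were the others named by rule. At F56F11.4 an IDR summit lay 199 bp from the highest member. Of the 1353 genes, 30 (2.22%) were also nearest to an IDR promoter peak, against 0.931% of all protein-coding genes. These 30 are 16.1% of the 186 genes with an IDR promoter peak, against 6.77% of all genes with a weak promoter peak. The overlap was not tested.

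The DNA under the weak promoter peaks was set beside that of all promoters, in windows reaching 100 bp to each side. The B box, searched as GTTCAANNC or GTTCGANNC, was found in 78 of the 1477 windows (5.28%, interval 4.25 to 6.54). It was found in 3.84% of windows at all annotated starts, in 3.48% of windows 149 bp upstream of them, and in 53.1% of the windows of IDR promoter peaks. The windows at starts and upstream of them include starts near tRNA, 5S rRNA, snRNA and snoRNA genes, which the member rule left out. Among the members the B box was in 9.21% of the highest of the 4 sets by signal value, 2.98% and 2.17% of the next ones and 6.76% of the lowest. The members with a B box had an IDR summit within 1 kb in 13 of 78 cases (16.7%), against 2.72% of the members without one. Of the 13 members within 1 kb of a tRNA pseudogene, 10 had a B box. None of the 25 members on X had one, but at the 5.28% of all members few would be expected among 25.

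The other motifs are given in the same order, for the member windows, the windows at all starts and the windows 149 bp upstream of them. TATAAA was in 22.3%, 24.2% and 24.7%. The GC box word GGGCGG was in 6.23%, 5.01% and 5.76%, and the E box CACGTG in 3.79%, 4.35% and 4.04%. The GATA word CTGATAA was in 3.25%, 4.90% and 5.45%, and GAGAGAGA in 1.76%, 1.86% and 2.74%. For a pair of words the members lay between the references. A run of 8 T, TTTTTTTT, was in 20.8%, 18.9% and 25.3%, and the splice acceptor word TTTCAG in 34.4%, 43.9% and 29.4%. Median GC content was 35.8% under the members, against 33.8% in the upstream windows and 36.3% at all starts. A match describes the letters of the window and shows no bound factor.

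Other non-coding genes were near some members, since the rule did not leave them out. A miRNA gene lay within 1 kb of 13 summits, a piRNA gene within 1 kb of 47 (3.18%) and another ncRNA, lncRNA or antisense RNA gene within 1 kb of 156 (10.6%). None lay within 1 kb of an RNase P, RNase MRP, signal recognition particle or Y RNA gene. The same shares were not counted for all protein-coding starts or for the other peak sets. These counts therefore do not show whether members lie near such genes more often than other promoters do. The part of these genes in the weak promoter peaks was not tested.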

How the data were processed

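Peak lists in narrowPeak format (ce11) were used for 2 biological replicates of 1 group. The descriptions deposited with the files say that a replicate list came from the alignments of 1 replicate and a control, the pooled list from both replicates together, and the optimal list from those 3 lists by the irreproducible discovery rate (IDR). Which aligner, peak caller and IDR threshold were used is not given in the sources used here. Column 7, the signal value, is a score deposited by the authors with no stated scale, so values of different lists share no known scale and were ranked within 1 list. The −log10 q values that the authors deposited share a ceiling within each list. Read counts and depth are unknown for these values, and control libraries were not analysed here.

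Summits were the start column plus the summit column. Transcript starts were read from RefSeq's WBcel235 annotation (ce11 is the same assembly), and none of the peaks ran past a chromosome end. A peak went to the gene with the nearest protein-coding transcript start, and the offset was signed along transcription. Overlap with a replicate peak was at least 1 bp, and of several the one with the nearest summit was used. Of the IDR peaks and of the peaks under a signal value of 20, those that met the same position and replicate rule were described beside the members. Wilson 95% intervals cover the error of counting only. The signal values chose the members and there is 1 group, so no test was made. Motifs were searched on both strands within 100 bp of the summit. Gene lists were made from symbol patterns, which miss genes named otherwise. The members and lists were chosen with earlier results of these data known. Named genes were the 10 highest and 5 lowest members, the highest of each chromosome, the 10 of best replicate ranks, up to 4 genes of each list, the members nearest to and farthest from the start, up to 5 genes with 3 or more members, and the peaks at the limits. Other genes are said to be named after their values were seen. A gene that the rule names is not reported here. Printed sequences skip members whose 150 bp window holds annotated UTR bases and those of chromosome I. The position functions were tested on simulated data. Python 3.11.15, pandas 2.3.3, numpy 2.4.6, scipy 1.17.1 and matplotlib 3.10.9 were used.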

Additional observations from a re-analysis of the deposited data

How the results depend on the processing

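Alternatives were tried for the number of members (1477), of their genes (1353) and of listed genes among them (183), the median offset (−149 bp), the share on X (1.69%), the share of genes with a divergent start (31.8%) and the median GC content (35.8%). With the lower limit of the signal value at 30 these were 613, 594, 82, −170 bp, 0.979%, 36.4% and 37.3%. With the summit within 250 bp of a start, members were 960, listed genes 120, the offset −104 bp, the share on X 1.15% and that with a divergent start 37.3%. Both alternatives keep a part of the members by construction, and the median offset stayed upstream in both. Ribosomal protein genes were 17 and 16 in these settings, against 30. Counting each gene with any start within 500 bp of a member, an alternative chosen after seeing the data, raised the share with a divergent start to 44.0%, since both genes of a pair then count. In the other settings, which were over 2 kb from small RNA genes, over 1 kb from IDR summits, 50% overlap, 1 replicate list only and 1 peak per gene, counts stayed within 1.5 times and the other values within their 95% interval. Without replicate 1 or replicate 2 as a requirement, members were 1501 and 1541. No paired analysis was possible because there is 1 group. The depth is unknown for these values, so a gene without a peak cannot be read as free of RPC-1.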

Other observations

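The 25 X-linked genes with a weak promoter peak are named here after their values were seen. After soc-3, the highest were epn-1, an epsin of endocytosis (49.8 in the pooled list, 27.1 in replicate 1 and 14.98 in replicate 2), and jbts-14, a transmembrane protein (44.2, 23.1 and 22.98). akt-2, a kinase of insulin signalling, had 34.2, 22.9 and 10.2, and the tetraspanin gene tsp-8 had 33.4, 14.2 and 12.4. At the low end were unk-1 (20.4) and adm-4 (20.1), a metalloproteinase gene.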
